A study of Homo sapiens with 6 samples.

Results

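The OVOL, GRHL, ZEB and ESRP genes are 10 regulators of epithelial fate, chosen by symbol from the 60240 genes of a count table of HCT116 cells with and without the histone demethylase LSD1 (encoded by KDM1A). They are OVOL1, OVOL2, OVOL3, GRHL1, GRHL2, GRHL3, ZEB1, ZEB2, ESRP1 and ESRP2. The group was picked from these same counts, because OVOL2, GRHL2, ZEB1 and ESRP1 had differed between the groups in earlier work on them. The differences of the 10 genes between LSD1 KO and WT libraries are therefore given as a description, without a test of their own. Polyadenylated RNA was sequenced from 3 libraries of wild-type HCT116 cells (WT), a human colorectal cancer line, and 3 libraries of HCT116 cells in which LSD1 had been knocked out with CRISPR/Cas9 (LSD1 KO). Both groups were grown in the same medium without a further treatment in the labels. The knockout was directed at the first exon of the gene. Cells were transfected, selected with puromycin and expanded as single clones, steps that the methods do not describe for WT cells. The sources do not say how many clones the 3 LSD1 KO libraries came from. The methods speak of biological replicates for the study's experiments in general, without saying for these libraries what was replicated. Spreads and p-values measure the differences between these libraries, which may in part be technical.

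Epithelial cells keep their identity through transcription factors that hold one another in check. The OVOL zinc-finger proteins and the Grainyhead-like proteins GRHL1 to GRHL3 maintain the epithelial state, whereas ZEB1 and ZEB2 bind E-box sequences and repress epithelial genes such as CDH1. ZEB1 recruits corepressor complexes, among them the CtBP and CoREST complexes that contain LSD1, and ZEB and OVOL or GRHL proteins can repress each other's genes. ESRP1 and ESRP2 are RNA-binding proteins that select the epithelial exons of genes such as FGFR2 and CD44, and they are known targets of repression by ZEB1.

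The libraries held between 25379279 and 29186963 counts, and 3 counts, used as the floor, were worth between 0.103 and 0.118 CPM, which are counts brought to one common library size. Floors and intervals here cover counting error alone. KDM1A was expressed at 223.1 ± 8.78 CPM (SD, n = 3) in WT libraries and at 28.4 ± 1.30 CPM (SD, n = 3) in LSD1 KO libraries, 12.7% of the WT mean. The deviations of same-numbered WT and LSD1 KO libraries moved together across genes, and a model with the replicate number as a block was therefore set beside the model without it. Library 2 of LSD1 KO had the highest ZEB1 and ZEB2 values and the lowest ESRP1 value of all 6 libraries, so results were also computed without pair 2. Of 9 colon epithelial markers, the summed level was between 2045 and 3820 CPM in WT and between 2421 and 3160 CPM in LSD1 KO libraries. Most of this sum came from KRT8, KRT18 and KRT19. The markers KRT20 and LGALS4 stayed at 0.572 and 0.378 CPM or less in every library. VIL1, a brush-border gene and one of these markers, stayed at 0.302 CPM or less in every library, while the intestinal factor CDX2 was present at 16.7 ± 4.41 CPM in WT and 16.7 ± 2.85 CPM in LSD1 KO libraries (SD, n = 3). Fibroblast markers, 7 genes of which 4 had at most 3 counts in any library and 1 of these had none, summed to between 21.5 and 24.8 CPM in WT and between 31.7 and 35.5 CPM in LSD1 KO libraries, most of it COL1A1. Immune markers, 6 genes of which 3 had at most 3 counts and 1 of these had none, summed to between 17.2 and 20.4 CPM in WT and between 23.2 and 34.2 CPM in LSD1 KO libraries. CD68 alone made up most of this sum in every library. Endothelial markers, 3 genes, summed to between 0.530 and 1.09 CPM in WT and between 0.966 and 2.04 CPM in LSD1 KO libraries. The part of these markers in the results was not tested, and a change in the number of cells of one kind cannot be told apart from a change in RNA per cell.

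Promoter sequences were searched for the motifs of these factors, because ZEB and OVOL proteins act on one another's promoters. The windows ran from 250 bases before to 50 bases after a transcription start (RefSeq, GRCh38.p14) and were held for 5 of the 10 genes, GRHL1, GRHL3, OVOL3, ZEB1 and ZEB2, with 12 windows in all. The E-box CAGGTG or its complement CACCTG, bound by ZEB and SNAI proteins, was searched on both strands. So was the OVOL motif, CCGTTA or its complement TAACGG. The Grainyhead motif AACCNGTT was searched only as written, along the strand of the gene, and not as its reverse complement. The OVOL and Grainyhead motifs can share letters, but no match in the windows of these genes overlapped another. Among all 35116 promoter windows, 20.6% held the E-box, 3.07% the OVOL motif and 0.968% the Grainyhead motif. ZEB1, whose counts were higher in LSD1 KO libraries, has 7 windows on the plus strand. Window 3, chr10:31318966-31319265, held 3 E-boxes, which started 242 and 85 bases before the start and at base 34 from it. Window 4, chr10:31319518-31319817, held an OVOL motif 203 bases before the start. The ZEB2 window, on the minus strand at chr2:144520070-144520369, held an OVOL motif at base 24. The windows of ZEB1 and ZEB2 are shown because they hold the OVOL motifs and the most E-boxes found among the windows of these genes. They are written from 5′ to 3′ along the gene, with the motifs in capitals.
ZEB1 window 3, E-boxes in capitals: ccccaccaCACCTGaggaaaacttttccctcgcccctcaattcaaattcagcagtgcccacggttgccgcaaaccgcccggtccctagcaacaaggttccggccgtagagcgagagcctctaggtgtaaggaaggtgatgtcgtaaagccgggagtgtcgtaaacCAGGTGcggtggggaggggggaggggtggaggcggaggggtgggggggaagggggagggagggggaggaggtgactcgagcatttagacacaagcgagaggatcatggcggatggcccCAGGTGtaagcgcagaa
ZEB1 window 4, OVOL motif in capitals: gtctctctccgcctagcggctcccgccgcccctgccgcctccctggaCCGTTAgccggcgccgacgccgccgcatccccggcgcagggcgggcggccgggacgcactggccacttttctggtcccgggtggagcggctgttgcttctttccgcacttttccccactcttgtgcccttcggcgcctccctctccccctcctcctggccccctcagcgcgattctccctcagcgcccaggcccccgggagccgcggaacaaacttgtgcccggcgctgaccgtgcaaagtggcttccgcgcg
ZEB2 window, OVOL motif in capitals: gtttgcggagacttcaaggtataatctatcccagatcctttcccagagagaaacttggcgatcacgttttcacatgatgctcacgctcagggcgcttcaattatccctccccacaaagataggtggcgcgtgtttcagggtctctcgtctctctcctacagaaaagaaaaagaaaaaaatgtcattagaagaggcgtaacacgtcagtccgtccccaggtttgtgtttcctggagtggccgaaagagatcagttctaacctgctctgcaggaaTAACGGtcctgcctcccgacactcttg
The first ZEB1 window held an E-box 57 bases before its start, and the other 4 windows of ZEB1 held none of the motifs as searched. The first GRHL3 window held E-boxes 21 bases before the start and at base 10, and the OVOL3 window held one at base 18. No window of the 5 genes held the Grainyhead motif in the orientation searched. A match says only that these letters occur in the window, and no binding was measured.

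**Figure D1:**
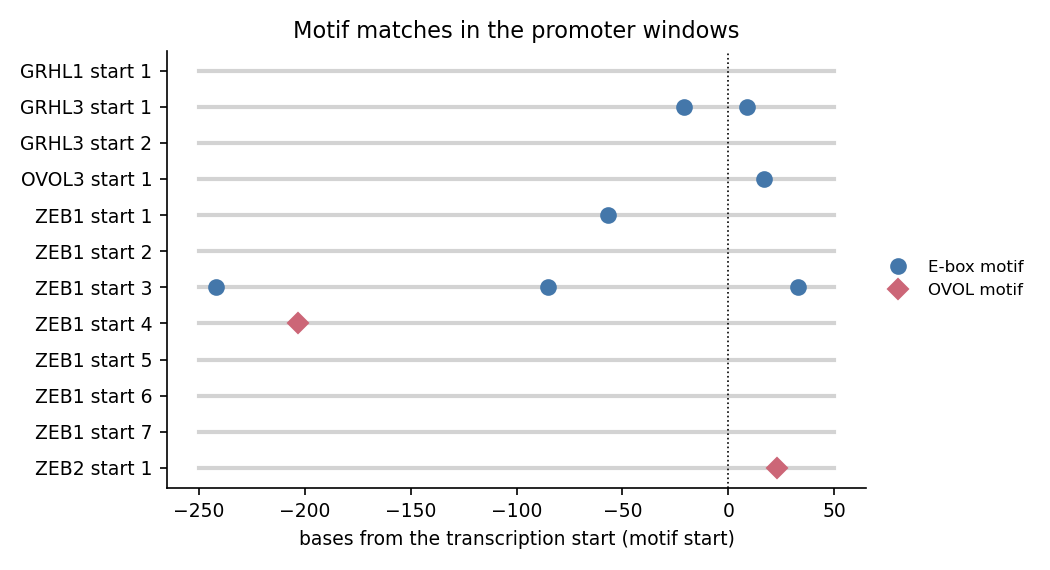
Motif matches in the 12 promoter windows of GRHL1, GRHL3, OVOL3, ZEB1 and ZEB2, with the start of each match given in bases from the transcription start (dotted line). The 3 E-boxes of ZEB1 start 3 and the OVOL motifs of ZEB1 start 4 and ZEB2 start 1 are the matches whose sequences are printed. No Grainyhead motif was found in the 1 orientation searched.

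OVOL2, ZEB1 and their relatives were followed by family. Of the 10 genes, 7 had enough counts to pass the low-count filter, and OVOL3, GRHL3 and ZEB2 did not. Among the 7 genes, the CPM ranges of the groups did not overlap for 4, which were OVOL2 and ZEB1 (higher in LSD1 KO) and GRHL2 and ESRP1 (lower in LSD1 KO). Of all 17672 genes past the filter, 7.74% did not overlap between the groups. Since the genes were chosen on this contrast, nothing is read from the comparison of these shares. The median log2 fold change of the 7 genes was 0.14, and that of all 17672 genes was 0.00082.

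Among the OVOL genes, transcriptional repressors of the mesenchymal programme, OVOL2 had few counts in WT cells and more in LSD1 KO cells. OVOL2 (ENSG00000125850), on chromosome 20 from 18024152 to 18059188 (GRCh38.p14), was counted 18, 54 and 28 times in WT libraries 1, 2 and 3 and 86, 172 and 83 times in LSD1 KO libraries 1, 2 and 3. In CPM these were 0.680, 2.04 and 0.928 in WT and 3.08, 6.34 and 3.14 in LSD1 KO libraries. Library 2 was the highest of each group, and the highest WT value lay below the lowest LSD1 KO value. The means were 1.22 ± 0.727 CPM in WT and 4.18 ± 1.86 CPM in LSD1 KO libraries (SD, n = 3), 3.44 times as high. The log2 fold change was 1.78 (standard error 0.50) without the replicate block and 1.83 (standard error 0.25) with it. Pairs 1, 2 and 3 of same-numbered libraries differed by 2.12, 1.62 and 1.72 on the log2 scale, so that each pair showed the same direction. The block estimate moved only between 1.69 and 1.93 when 1 pair was left out. SNX5, a sorting nexin gene whose span overlaps that of OVOL2 in the GENCODE annotation, was counted at 176.2 ± 24.9 CPM in WT and 177.6 ± 24.5 CPM in LSD1 KO libraries (SD, n = 3), with a log2 fold change of 0.01 (standard error 0.18). The groups overlapped for SNX5.

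OVOL1, a paralog of OVOL2, was counted 146, 194 and 218 times in WT and 168, 202 and 230 times in LSD1 KO libraries. It was expressed at 5.52, 7.34 and 7.22 CPM in WT and at 6.01, 7.44 and 8.71 CPM in LSD1 KO libraries. The groups overlapped, with means of 6.69 ± 1.02 and 7.39 ± 1.35 CPM (SD, n = 3) and a log2 fold change of 0.14 (standard error 0.25). OVOL3, another family member, was not counted in any WT library and was counted 2, 2 and 4 times in LSD1 KO libraries. Against a floor of 3 counts over the WT group, the ratio of OVOL3 in LSD1 KO libraries was 2.66. This is not a lower bound, since the exact 95% interval of the ratio, for counting error, reached down to 1.70. With 8 counts in all, OVOL3 lay near the limit of detection at this depth.

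Among the Grainyhead-like factors, which activate junction genes of epithelia, GRHL2 was low in LSD1 KO cells and GRHL1 differed little. GRHL2 (ENSG00000083307), on chromosome 8 from 101492439 to 101681200 (GRCh38.p14), was counted 199, 148 and 259 times in WT libraries and 15, 47 and 30 times in LSD1 KO libraries. It was expressed at 7.52, 5.60 and 8.58 CPM in WT and at 0.536, 1.73 and 1.14 CPM in LSD1 KO libraries. Every LSD1 KO value lay below every WT value, and library 2 was the highest of the LSD1 KO group and the lowest of the WT group. The mean was 7.23 ± 1.51 CPM in WT and 1.13 ± 0.598 CPM in LSD1 KO libraries (SD, n = 3), 15.7% of the WT level. The fitted log2 fold change was -2.67 (standard error 0.43) without the block and -2.72 (standard error 0.37) with it. By pair, the log2 difference was -3.72, -1.67 and -2.88, negative in each pair and smallest in pair 2. Without pair 2 the block estimate was -3.32, farther from 0 than with all pairs, and without pair 1 it was -2.29.

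GRHL1 (ENSG00000134317), on chromosome 2 from 9951693 to 10002277, was counted 315, 416 and 476 times in WT and 396, 452 and 503 times in LSD1 KO libraries. Its level was 11.9, 15.7 and 15.8 CPM in WT and 14.2, 16.7 and 19.0 CPM in LSD1 KO libraries. The groups overlapped, and the log2 fold change was 0.20 (standard error 0.20). GRHL3, which acts in epidermal barrier formation, was counted 3, 2 and 3 times in WT and 1, 0 and 9 times in LSD1 KO libraries. The ratio of the summed counts, scaled to library size, was 1.24 with an exact 95% interval from 0.442 to 3.63, and 9 of the 10 counts in LSD1 KO came from library 3. No difference in GRHL3 was detectable at this depth.

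Among the ZEB genes, repressors of epithelial genes, ZEB1 was higher in LSD1 KO libraries and ZEB2 was nearly silent. ZEB1 (ENSG00000148516), on chromosome 10 from 31318417 to 31529804, was counted 283, 218 and 300 times in WT libraries and 501, 943 and 533 times in LSD1 KO libraries. Its level was 10.7, 8.25 and 9.94 CPM in WT and 17.9, 34.7 and 20.2 CPM in LSD1 KO libraries. The groups did not overlap, and LSD1 KO library 2 stood above the other LSD1 KO libraries. The mean was 9.63 ± 1.25 CPM in WT and 24.3 ± 9.13 CPM in LSD1 KO libraries (SD, n = 3), 2.52 times as high. The log2 fold change was 1.33 (standard error 0.27) without the block and 1.28 (standard error 0.23) with it. The pair differences on the log2 scale were 0.74, 2.07 and 1.02, and without pair 2 the block estimate was 0.87. ZEB1-AS1, the antisense neighbour of ZEB1, was at 4.91, 4.96 and 4.08 CPM in WT and 6.15, 4.90 and 5.38 CPM in LSD1 KO libraries, with overlapping groups and a log2 fold change of 0.24 (standard error 0.24). The sources do not state that strand was used in counting, so reads from ZEB1 and ZEB1-AS1 may not have been told apart where they overlap.

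ZEB2, the second ZEB factor, was counted 3, 0 and 2 times in WT and 4, 23 and 5 times in LSD1 KO libraries. The ratio of the summed counts was 6.37 with an exact 95% interval from 2.46 to 21.0, which covers counting error only. LSD1 KO library 2 held 23 of the 32 counts in the LSD1 KO group. Without pair 2, ZEB2 had 5 counts in WT and 9 in LSD1 KO libraries.

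Among the splicing regulators, ESRP1 was lower in LSD1 KO libraries and ESRP2 overlapped. ESRP1 (ENSG00000104413), on chromosome 8 from 94641174 to 94707466, was counted 4318, 3838 and 4574 times in WT and 3277, 1871 and 2780 times in LSD1 KO libraries. Its level was 163.1, 145.3 and 151.6 CPM in WT and 117.2, 68.9 and 105.3 CPM in LSD1 KO libraries. Every LSD1 KO library lay below every WT library, and library 2 was the lowest of each group. The mean was 153.3 ± 9.05 CPM in WT and 97.1 ± 25.1 CPM in LSD1 KO libraries (SD, n = 3), 63.3% of the WT level. The fitted log2 fold change was -0.66 (standard error 0.21) without the block and -0.69 (standard error 0.13) with it. The log2 differences by pair were -0.48, -1.08 and -0.53, and the block estimate without pair 2 was -0.52. ESRP2 (ENSG00000103067), on chromosome 16 from 68229033 to 68236127, was counted 1182, 1113 and 1748 times in WT and 1098, 1063 and 1385 times in LSD1 KO libraries. It was at 44.7, 42.1 and 57.9 CPM in WT and 39.3, 39.2 and 52.4 CPM in LSD1 KO libraries, with a log2 fold change of -0.15 (standard error 0.19).

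**Figure D2:**
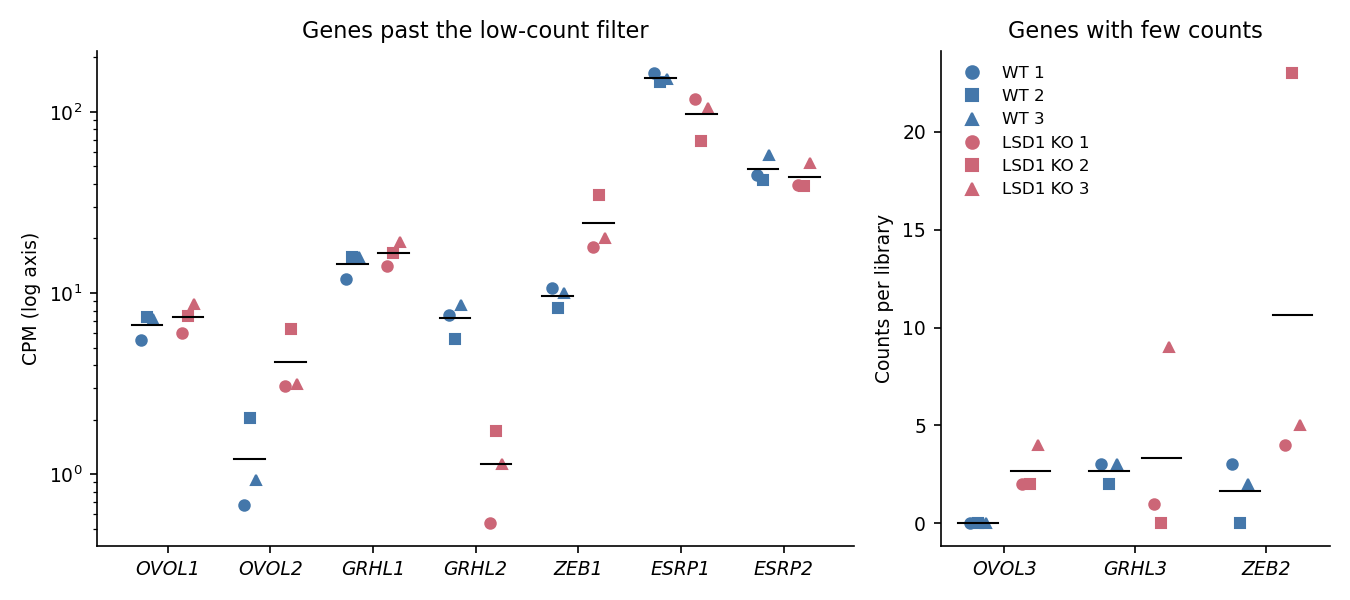
Levels of the 10 genes in each library (left, CPM on a log axis for the 7 genes past the low-count filter; right, counts for the other 3), with blue symbols for WT, red for LSD1 KO, one symbol shape per replicate number and a bar at the mean of 3 libraries. OVOL2 and ZEB1 lay higher and GRHL2 and ESRP1 lower in all 3 LSD1 KO libraries than in any WT library, and LSD1 KO library 2 held 23 of the ZEB2 counts.

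**Figure D3:**
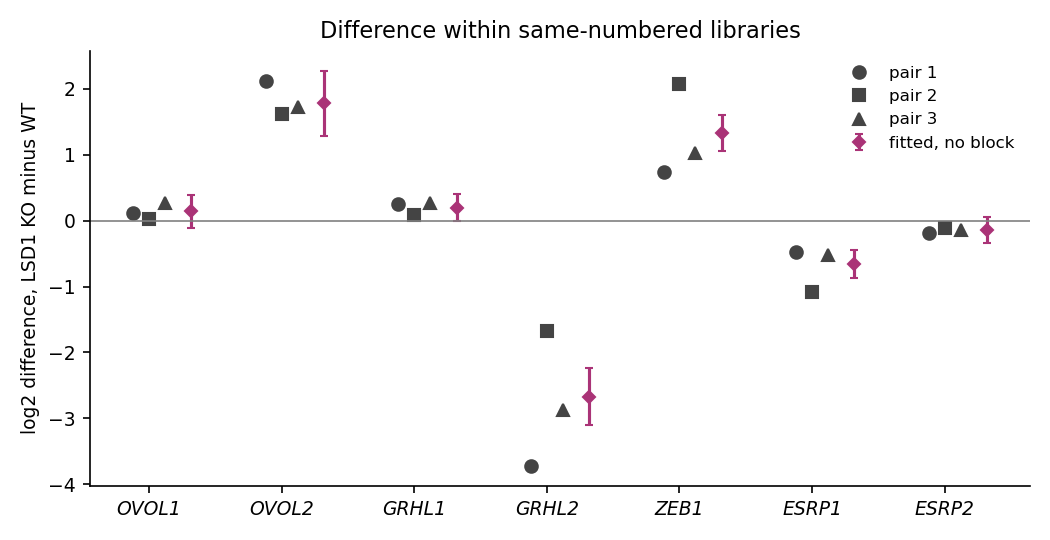
Log2 difference of CPM between the LSD1 KO and the WT library of the same replicate number for 7 genes (black symbols), beside the log2 fold change of edgeR without the block (diamond, with its standard error). The 3 pairs had the same sign for each of the 7 genes, also for OVOL1, GRHL1 and ESRP2, whose groups overlapped. For ZEB1, pair 2 lay farthest from the others, at 2.07.

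The model across all genes called none of the 7 genes without the replicate block (edgeR, q value under 0.1). In that model 1 gene of 17672 was called, which is 0.00566%, and 4 of the 7 genes and 552 of all genes had an unadjusted p under 0.05. With the replicate block, 4 of the 7 were called, OVOL2 and ZEB1 higher and GRHL2 and ESRP1 lower, against 1.6% of all genes, 1.05% higher and 0.549% lower. DESeq2's Wald test called 3 of 10, GRHL2, OVOL2 and ZEB1, against 0.37% of all genes. Because the contrast chose the genes, nothing is read from these counts.

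Compared per kilobase of transcript, the regulators spanned a wide range of levels, with ESRP1 at the top of both groups. In WT libraries the order of mean CPM per kilobase was ESRP1 at 40.7 ± 2.40, ESRP2 at 14.1 ± 2.47, GRHL1 at 4.06 ± 0.625, OVOL1 at 2.24 ± 0.342, ZEB1 at 1.62 ± 0.210, GRHL2 at 1.38 ± 0.289 and OVOL2 at 0.769 ± 0.459 (SD, n = 3). The ranges of ZEB1 and GRHL2 overlapped, as did those of GRHL2 and OVOL2. GRHL3 followed at 0.0339, ZEB2 at 0.00646 and OVOL3 was not detected, with overlapping ranges for ZEB2 and OVOL3. In LSD1 KO libraries the order was ESRP1 at 25.8 ± 6.67, ESRP2 at 12.7 ± 2.23, GRHL1 at 4.66 ± 0.684, ZEB1 at 4.09 ± 1.54, OVOL2 at 2.64 ± 1.18, OVOL1 at 2.47 ± 0.452 and GRHL2 at 0.217 ± 0.114 CPM per kilobase (SD, n = 3). From GRHL1 to OVOL1, each range overlapped that of the next gene, and so did those from GRHL2 to OVOL3 (0.145), GRHL3 (0.0443) and ZEB2 (0.0424). ZEB1 and OVOL2 thus stood ahead of OVOL1 in mean, but within the spread for OVOL2.

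The balance of the families was also given as ratios within each library, which do not depend on library size. The ratio of ESRP1 to ZEB1 per kilobase was 24.0, 27.7 and 24.0 in WT libraries and 10.3, 3.13 and 8.22 in LSD1 KO libraries. GRHL2 to ZEB1 was 0.798, 0.770 and 0.980 in WT and 0.0340, 0.0566 and 0.0639 in LSD1 KO libraries. Neither ratio overlapped between the groups, and GRHL2 was below ZEB1 in all 6 libraries. The ratio of OVOL2 to ZEB1, whose levels were both higher in LSD1 KO, was 0.239, 0.929 and 0.350 in WT and 0.644, 0.684 and 0.584 in LSD1 KO libraries and overlapped. OVOL2 to GRHL2 went from 0.299, 1.21 and 0.357 in WT to 18.9, 12.1 and 9.14 in LSD1 KO libraries, without overlap. The ratio of the 2 splicing regulators, ESRP1 to ESRP2, was 3.32, 3.14 and 2.38 in WT and 2.72, 1.60 and 1.83 in LSD1 KO libraries, with overlapping groups. These ratios rest on the same counts that chose the genes and were not tested.

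**Figure D4:**
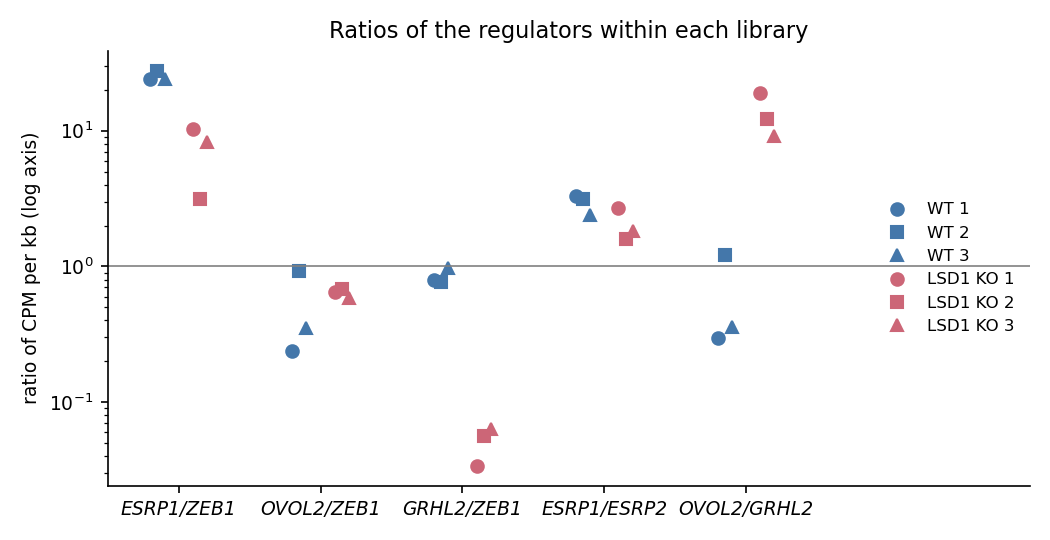
Ratios of regulators within each library, as CPM per kilobase on a log axis, for WT (blue) and LSD1 KO (red) libraries, with the shape giving the replicate number and a line at equal levels. GRHL2 to ZEB1 was between 0.770 and 0.980 in WT and between 0.0340 and 0.0639 in LSD1 KO libraries, while OVOL2 to ZEB1 overlapped.

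The genes with the pattern closest to each of the 4 regulators were sought among 14814 genes with a mean of at least 1 CPM, by the root mean square difference of centred log2 CPM over the 6 libraries. For OVOL2, whose own root mean square deviation was 1.07, these were PTGER1, a prostaglandin receptor gene (difference 0.215), SNAP25, a vesicle fusion gene (0.302), and RNF128, a ubiquitin ligase gene (0.376). ZEB1 ranked 75 for OVOL2, at 0.633. For GRHL2, with its own deviation of 1.47, they were FAM156B (0.558), KDM1A itself (0.558) and TMEM200A (0.567). For ZEB1, with a deviation of 0.711, they were SLC4A8, a bicarbonate transporter gene (0.220), IQGAP2 (0.227) and LRRC34 (0.247). For ESRP1, with a deviation of 0.421, they were ACOT11, a thioesterase gene (0.119), LINC01247 (0.119) and MARVELD3, a tight-junction membrane protein gene (0.125). These points share the same 6 libraries, and the likeness is a description.

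Genes of the programme that these regulators act on were taken from lists. All gene lists used here were chosen with earlier results of these data known. Their counts, shares and q values are therefore a description, and nothing is read from their comparison with all genes. Of 42 epithelial junction and surface genes tested, none was called without the replicate block. In that model 11 had an unadjusted p under 0.05, beside 552 of all 17672 genes. DESeq2, which tested 44 of the list, called 4 (TJP3, MAL2, ST14 and EPCAM), against 0.37% of all genes. With the block, 5 were called, 2 higher and 3 lower, beside 1.6% of all genes. The median log2 fold change of the list was -0.18 without the block, against 0.00082 for all genes, and 11 of the 42 were positive, against 8856 of all 17672. In 12 of the 42 the groups did not overlap (7.74% of all genes), 2 with higher and 10 with lower values in LSD1 KO libraries.

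The 2 junction genes that rose with the block are scaffold genes of tight junctions. TJP3 was at 24.4, 45.3 and 37.9 CPM in WT and 60.3, 134.2 and 93.9 CPM in LSD1 KO libraries, which did not overlap. TJP3 rose by 1.396 on the log2 scale (standard error 0.098, q value 0.00154 from edgeR with the block, 0.587 without). CGN, which encodes cingulin, was at 19.5, 22.6 and 29.7 CPM in WT and 38.4, 36.5 and 43.3 CPM in LSD1 KO libraries, which again did not overlap. CGN rose by 0.74 on the log2 scale (standard error 0.11, q value 0.0320 with the block, 0.847 without). CGN was not called by DESeq2 (q value 0.391), whereas TJP3 was.

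The 3 surface genes that fell with the block were MAL2, ST14 and EPCAM. MAL2, a component of apical transport, was at 26.3, 33.5 and 30.4 CPM in WT and at 3.65, 0.589 and 5.38 CPM in LSD1 KO libraries. With the block, its log2 fold change and standard error were -3.38 ± 0.47, at a q value of 0.0220 (0.443 without the block). ST14, which encodes the surface protease matriptase, was at 101.5, 147.7 and 133.1 CPM in WT and at 48.8, 48.6 and 51.1 CPM in LSD1 KO libraries, with a log2 fold change and standard error of -1.35 ± 0.12 and a q value of 0.00462 with the block (0.174 without). EPCAM, an epithelial adhesion molecule, was at 191.2, 248.0 and 172.8 CPM in WT and at 133.9, 77.6 and 101.4 CPM in LSD1 KO libraries, with a log2 fold change and standard error of -0.98 ± 0.20 and a q value of 0.0788 with the block (0.668 without). None of the 3 overlapped between the groups, and library 2 was the lowest of the LSD1 KO group for each of them. CDH1, which encodes E-cadherin, did not pass the test, at 36.04 ± 8.64 CPM in WT and 28.5 ± 7.85 CPM in LSD1 KO libraries (SD, n = 3) with a log2 fold change of -0.34 (q value 0.196 with the block). KRT8, a simple-epithelium keratin gene, did not pass either, at 1268 ± 413 and 1109 ± 131 CPM (SD, n = 3; q value 0.645 with the block).

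Of 21 mesenchymal genes tested, none was called without the block, and 2 had an unadjusted p under 0.05 (552 of all 17672 genes). DESeq2, which tested 26 of the list, called 1 (S100A4, not COL1A1), against 0.37% of all genes. With the block, 2 were called and both were higher, beside 1.05% of all genes called higher, and the median log2 fold change of the list was 0.20 without the block, with 18 of 21 positive against 8856 of all 17672. S100A4, a calcium-binding protein gene expressed in motile cells, was at 52.8, 79.5 and 43.1 CPM in WT and at 132.3, 108.9 and 104.3 CPM in LSD1 KO libraries. S100A4 rose by 1.02 on the log2 scale (standard error 0.17, q value 0.0356 with the block, 0.662 without), and the groups did not overlap. COL1A1, a fibrillar collagen gene that also stands among the fibroblast markers above, rose by 0.52 on the log2 scale (standard error 0.098, q value 0.0628 with the block, 1.000 without), from 20.4, 23.8 and 23.9 CPM to 30.1, 33.2 and 34.0 CPM. VIM, the gene of vimentin, did not pass the test, with 34.2, 30.4 and 26.3 CPM in WT and 40.3, 97.7 and 30.0 CPM in LSD1 KO libraries, where library 2 stood apart (q value 0.301 with the block). FN1, the fibronectin gene, was at 30.3 ± 9.85 CPM in WT and 45.9 ± 15.8 CPM in LSD1 KO libraries (SD, n = 3; q value 0.348 with the block). CDH2, which encodes N-cadherin, was counted 0, 1 and 6 times in WT and 0, 4 and 1 times in LSD1 KO libraries and was not tested.

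Of 14 genes whose splicing ESRP proteins control, none was called without the block, and DESeq2 called none. In the model without the block, 2 had an unadjusted p under 0.05, beside 552 of all 17672 genes. With the block, 1 was called, beside 1.6% of all genes. The median log2 fold change was 0.04 without the block, and 7 of the 14 were positive, against 8856 of all 17672. FGFR2, named after its values were seen, was at 21.4 ± 1.75 CPM in WT and 14.9 ± 2.003 CPM in LSD1 KO libraries (SD, n = 3), without overlap and with a q value of 0.101 with the block. Counts per gene do not show which exons were used, so exon choice by ESRP1 and ESRP2 was not measured. Among 11 other regulators of splicing in the epithelial-mesenchymal transition, none was called with edgeR, with 1 at an unadjusted p under 0.05 without the block and 5 with it, beside 552 and 2373 of all 17672 genes. RBM47, an RNA-binding protein gene of epithelia, was at 20.2, 19.3 and 20.9 CPM in WT and 30.2, 29.4 and 26.2 CPM in LSD1 KO libraries, without overlap, with a log2 fold change and standard error of 0.50 ± 0.11 and a q value of 0.102 with the block.

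**Figure D5:**
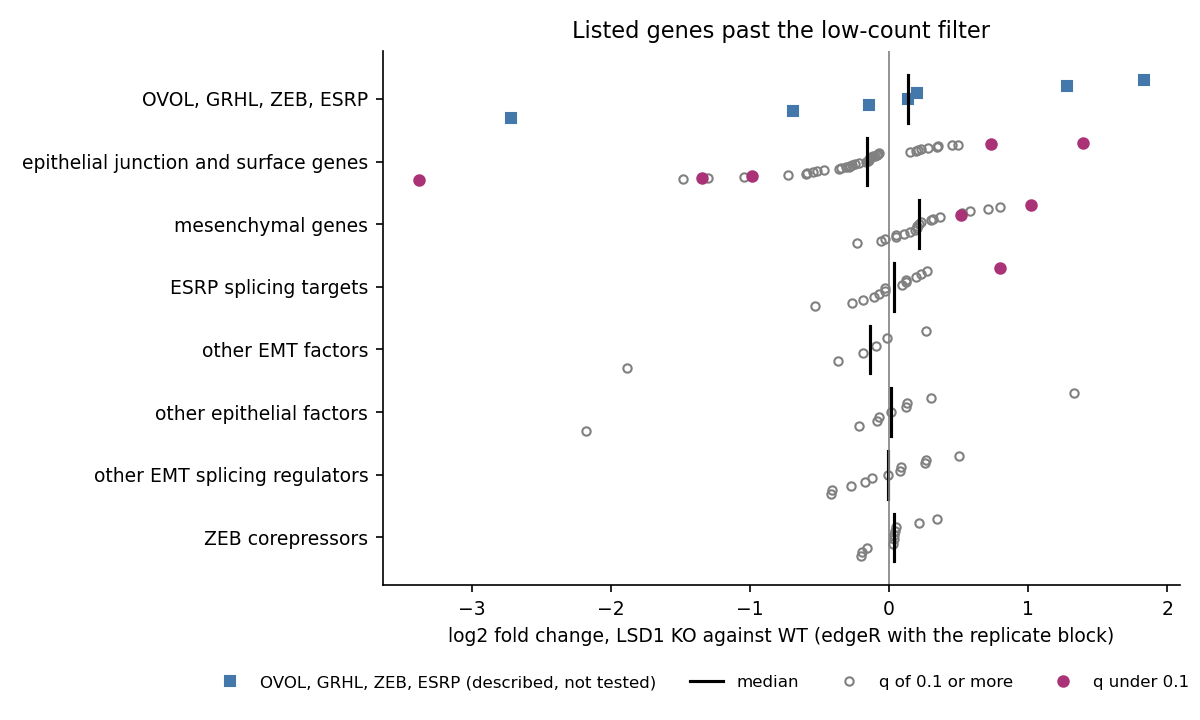
Log2 fold change of LSD1 KO against WT (edgeR with the replicate block) for the genes of each list that passed the low-count filter, with filled circles at a q value under 0.1, squares for the OVOL, GRHL, ZEB and ESRP genes and a bar at each median. Of the junction and surface genes, 2 filled circles lie to the right and 3 to the left of 0, and in the mesenchymal list both lie to the right.

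Other factors that work beside the OVOL, GRHL and ZEB genes were also read. Of 6 other transcription factors of the epithelial-mesenchymal transition tested, none was called with edgeR in either model. DESeq2, which tested 8 of the list, called none. Without the block 0 had an unadjusted p under 0.05 (552 of all 17672 genes), and with it 1 did (2373 of all genes). That gene was TWIST1, a mesenchymal factor named after its values were seen, which was counted 29, 62 and 65 times in WT and 4, 40 and 8 times in LSD1 KO libraries. The groups overlapped for TWIST1, and its log2 fold change and standard error were -1.88 ± 0.51 with the block (q value 0.170) and -1.54 ± 0.75 without it. SNAI1, which represses CDH1 like ZEB1, was at 13.04 ± 2.02 CPM in WT and 15.8 ± 3.10 CPM in LSD1 KO libraries (SD, n = 3; q value 0.389 with the block). SNAI2, its relative, was counted 9, 20 and 16 times in WT and 2, 98 and 1 times in LSD1 KO libraries, so that its mean in LSD1 KO was set by library 2, the library that also held most ZEB2 counts. Among the 10 genes of the ZEB corepressor complexes, none was called with edgeR, with 0 at an unadjusted p under 0.05 without the block and 2 with it, where 2373 of all 17672 genes had one. Hairpins of the miR-200 family, microRNAs that target ZEB transcripts, had 0 counts in every library for 5 of 5, and their host gene MIR200CHG was counted 11, 11 and 9 times in WT and 16, 0 and 6 times in LSD1 KO libraries. A library of polyadenylated RNA does not measure mature microRNAs.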

How the data were processed

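RNA-seq libraries of 3 WT and 3 LSD1 KO HCT116 samples were analysed. Per the submitters' processing notes, the authors used FastQC, Trimmomatic 0.39 and Salmon 1.4.0 with GRCh38, and they deposited 1 table of unscaled expected counts, all whole numbers. Replicates were not pooled. Symbols were matched through the Ensembl identifier for 58395 of 60240 genes. The genes and the gene lists were chosen with earlier results of these data known.

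Counts were compared with edgeR 4.0.16 in R 4.3.3 (TMM, filterByExpr by group, quasi-likelihood test, Benjamini-Hochberg adjustment over 17672 genes, calls at q under 0.1). The standard error was the absolute log2 fold change divided by the square root of F. The replicate number was added as a block in another fit. Deviations from the group mean correlated positively for WT and LSD1 KO libraries of the same number (Pearson's r across genes 0.531, 0.530 and 0.388). For libraries of different numbers r was between -0.489 and 0.0312. Deviations within a group sum to 0, so positive values for the same number lower those for different numbers. With this block 282 genes were called. The sources used here do not say what the numbers stand for. With 3 libraries against 3, an exact permutation test cannot give a p below 0.1, so none was run for single genes. DESeq2 1.42.0, other size factors, no filter and leaving out each library in turn were alternatives. Printed CPM used TMM-scaled library sizes, ratios of summed low counts and floors used plain totals, and log2 CPM for pair differences and pattern likeness used a prior count of 1. Transcript lengths came from GENCODE v44lift37, positions and promoters from RefSeq (GRCh38.p14). CD24 and PECAM1 were not matched and are not analysed here. The values of 1 gene called with the block are not reported here. The edgeR and DESeq2 fits were tested in R on simulated counts, with no replicate effect and less spread between libraries than in the main model. The other steps used Python 3.11.15 (scipy 1.17.1, matplotlib 3.10.9) and were not tested in this way.

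The genes named were the 10 regulators, KDM1A, the genes called in either edgeR model within each list (at most 8 a list), CDH1, EPCAM, KRT8, VIM, CDH2, FN1, SNAI1, SNAI2, SNX5, ZEB1-AS1 and RBM47, and the 3 genes with the most similar pattern. FGFR2, TWIST1, ELF3, HNF4A, CDX2, VIL1, KRT18, KRT19, KRT20, LGALS4, CD68 and MIR200CHG were named after their values were seen.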

Additional observations from a re-analysis of the deposited data

How the results depend on the processing

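Other size factors (RLE or upper quartile) left the counts of calls as they were. Of all genes, 1 was called without the replicate block, 114 without the filter, 95 with DESeq2, 282 with the block and 593 with DESeq2 and the block. Leaving out 1 library gave between 1 and 26 genes, the most without LSD1 KO replicate 2. With the block, leaving out pair 1, 2 or 3 gave 428, 1055 and 198 genes. Of the OVOL, GRHL, ZEB and ESRP genes, 0 were called in the main model, 3 without the filter, 3 with DESeq2, 4 with the block, 4 with DESeq2 and the block, 4 after leaving out any pair with the block, and between 0 and 1 after leaving out 1 library. For the epithelial junction and surface genes the counts were 6 without the filter, 4 with DESeq2, 5 with the block, 10, 12 and 7 without pair 1, 2 or 3, and between 0 and 1 without 1 library. For the mesenchymal genes they were 2, 1, 2, then 2, 3 and 2 without pair 1, 2 or 3, and between 0 and 1. For the ESRP splicing targets the block gave 1, and 1, 3 and 1 without pair 1, 2 or 3. DESeq2 with the block, and the block with a pair left out for all genes and for the lists other than the regulators, were chosen after seeing the data, and the cause of the differences was not tested. Over 15 alternatives OVOL1, OVOL2, GRHL1, GRHL2, ZEB1 and ESRP1 kept the sign of their log2 fold change in 15, with ranges of 1.33 to 2.37 for OVOL2, -3.32 to -2.29 for GRHL2, 0.87 to 1.55 for ZEB1 and -0.82 to -0.48 for ESRP1. ESRP2 kept it in 14, and ranged from -0.30 to 0.0063. Depth limits OVOL3, GRHL3 and ZEB2, which had at most 23 counts in any library.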

Other observations

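Of 9 other epithelial transcription factors tested, none was called with edgeR in either model. In each model 2 had an unadjusted p under 0.05, beside 552 of all 17672 genes without the block and 2373 with it. DESeq2, which tested 12 of the list, called 1, against 0.37% of all genes. That gene was ELF3, an epithelial ETS factor, at 23.9, 52.4 and 39.0 CPM in WT and 98.4, 60.2 and 128.8 CPM in LSD1 KO libraries, without overlap between the groups. Its log2 fold change was 1.32 (standard error 0.34, q value 0.788 from edgeR without the block, 0.117 with it, 0.0357 from DESeq2). HNF4A, a factor of intestinal and liver epithelium, was counted 49, 49 and 62 times in WT and 16, 2 and 20 times in LSD1 KO libraries, also without overlap, and its log2 fold change and standard error were -2.03 ± 0.63 (q value 1.000 from edgeR without the block, 0.136 with it). Of the 3 relatives of the Grainyhead family in the CP2 branch, TFCP2, TFCP2L1 and UBP1, none was called with edgeR or DESeq2, and none had an unadjusted p under 0.05 in either edgeR model.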
